A study of Drosophila melanogaster with 12 samples.

Results

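The potassium channel genes Sh, eag, Shab, Shaw, Shal, slo, SK, KCNQ and sei were followed together with Hyperkinetic (Hk), as 10 genes chosen by name, where the array names 10844 in all. Potassium channels let neurons repolarise after each action potential, and the fruit fly is where several of the channel families were first found, some of them through mutants that shake their legs under ether. Hk encodes the beta subunit that binds the voltage-gated channel Shaker (Sh), and both are known in flies for effects on excitability and sleep. The other voltage-gated pore subunits are those of the Shaker relatives Shab, Shaw and Shal, of the eag and erg-type channels eag and sei, and of KCNQ. The channels encoded by slo and SK open with intracellular calcium, slo with voltage as well.

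These 10 genes were followed in the heads of adult Drosophila melanogaster on Affymetrix oligonucleotide arrays, on which a probe set of short oligonucleotides reports a transcript. Their probe sets were those that the platform annotation pairs with exactly 1 gene symbol and with 1 of the 10 genes. There were 20 such probe sets for 9 genes, out of 13966 probe sets without controls. No probe set was paired with KCNQ, which is therefore not analysed here. Sh had 4 probe sets, SK 5, Shab 3, Hk and Shaw 2 each, and eag, Shal, slo and sei 1 each. Of the 20, 18 passed a filter on mean Signal (at least 128.3, the 40th percentile) and were tested. The other 2, both of SK (144518_at and 153123_at), had mean Signals of 38.9 and 57.0 over the 12 arrays. They spanned 15.1 to 89.6 and 5.6 to 126.1, with all 3 lines overlapping. Hk, SK, eag and Sh lie on the X chromosome, Shaw on 2L, Shab and Shal on 3L, slo on 3R and sei on 2R.

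The 12 arrays came from 3 lines and both sexes, with 2 arrays in each of the 6 groups: females and males of BG02514, of BG02257 and of Canton S B. Canton S B, derived from a wild type, served as the control. BG02514 and BG02257 are taken here to carry a gene-trap P-element each, from general knowledge of the BG collection. Where these insertions sit, and how alike the lines are elsewhere in the genome, is not stated in the labels. Per the design text, all lines were raised at the same time at 25 °C, in 70% humidity and 12 h of light a day. Each sample pooled the heads of 100 flies aged 5 to 7 days, and each line and sex had 2 such groups of flies. Each line is a single stock, so a difference between lines cannot be told apart from a difference between stocks. Both male arrays of BG02257 carry replicate number 1 and are called male 1a and 1b; they were treated as separate samples, and their labels do not settle whether they are. Whether replicate groups of flies came from separate cultures is not stated, so the p-values measure the spread between these samples, which may be technical.

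Median Signal ranged from 182.9 to 206.1 between arrays, and replicates correlated at a Spearman's rho of 0.942 to 0.964 across probe sets, which are not independent. The array BG02257 male 1a stood apart. It had the lowest Signal of the 12 arrays at 15.9% of all tested probe sets, against 5.91% to 10.9% on the other 11. All 7 measured neuron genes passed the filter on mean Signal over the 12 arrays, but 5 of the 7 had their lowest Signal on male 1a. The neuron gene elav had 178.6 on male 1a, against 272.4 to 681.3 on the other arrays. The active-zone gene brp had 9.8 on male 1a, against 76.5 to 213.8. Summed over the 7, Signal was 4439.9 on male 1a against 5286.8 to 8458.9 elsewhere. ChAT and Rdl, the rest of the 7, were not lowest there. ChAT had 1759.2 on male 1a, against 988.6 to 2349 on the other arrays, and Rdl 602.6 against 486.5 to 1307.2. In pooled heads, fewer neurons, less RNA per neuron and a technical difference of that array cannot be told apart. Why male 1a stood apart was not tested. Of the testis and accessory gland list 2 of 8 genes, and of the ovary list 1 of 5 genes on the array, passed the filter.

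Hk differed most clearly among the genes. At its brighter probe set (153442_at) Signal was 1656.8 and 1654.3 in BG02514 females and 1593.7 and 1574.1 in BG02514 males. In BG02257 it was 2481.5 and 3348.0 in females and 3661.4 and 4111.1 in males. In Canton S B it was 3090.2 and 1943.7 in females and 2412.2 and 2958.9 in males. The 4 BG02514 arrays were thus below each of the other 8, and lay close together. Of all 8380 tested probe sets, 0.895% were lower on every BG02514 array than on each of the other 8, and 3.21% than on each BG02257 array. Means were 1620 ± 42.1 in BG02514, 3400 ± 688 in BG02257 and 2601 ± 528 in Canton S B (SD, n = 4 arrays each, 2 of either sex).

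Between BG02514 and BG02257 the log2 difference of Hk was −1.05 ± 0.16 (SE), a fold of 0.484 with a 95% interval of 0.378 to 0.621 (limma adjusted p = 0.0283). Difference and p come from 1 limma model with 6 group means, with p adjusted by the Benjamini-Hochberg method over all 8380 tested probe sets, and a probe set is called here when its adjusted p is under 0.05. In this comparison 0.334% of all tested probe sets were called, 0.155% as lower in BG02514, and Hk ranked 14th by p. Hk was the 1 called among the 18 tested probe sets of the potassium channel genes, and 3 of the 18 had an unadjusted p under 0.05 (Hk, SK and 1 probe set of Sh), against 9.99% of all tested.

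The Hk call depended on single arrays. It was lost on leaving out any of the 4 BG02514 arrays (limma adjusted p = 0.114, 0.168, 0.139 and 0.132), and on leaving out BG02257 female 1 (0.0548), female 2 (0.143) or male 1a (0.0521). It was kept without BG02257 male 1b (0.0433) and without each Canton S B array. The size stayed between −1.15 and −0.94 over these 12 fits. With both BG02257 male arrays averaged as 1 sample the adjusted p was 0.075, and with the replicate number as a block 0.0629.

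Against Canton S B, Hk passed the test in neither insertion line. BG02514 gave −0.66 ± 0.16 (SE, limma adjusted p = 0.194), with a 95% interval of −1.02 to −0.30, although its 4 arrays and the 4 Canton S B arrays did not overlap. In that comparison 2.76% of all tested probe sets were lower in BG02514 without overlap. BG02257 gave 0.39 ± 0.16 (adjusted p = 0.999), with an interval of 0.03 to 0.74 and overlapping arrays. The comparisons between lines share their arrays, so the 3 differences are not independent.

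The other probe set of Hk (144789_at) did not follow the brighter one. It was dim, with a mean Signal of 166.2, close to the filter, and its range was 130.0 to 217.8 in BG02514, 102.6 to 241.1 in BG02257 and 59.7 to 262.1 in Canton S B. Its difference between BG02514 and BG02257 was 0.20 ± 0.44 (SE, limma adjusted p = 0.916), with a 95% interval of −0.77 to 1.17. Over the 12 arrays the 2 probe sets correlated at a Pearson's r of −0.21. Replicate arrays of the dim one differed by an SD of 0.743 on the log2 scale, against 0.250 at the brighter one. Which Hk transcripts each probe set reads was not analysed here, so the called difference stands for 1 probe set only.

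**Figure D1:**
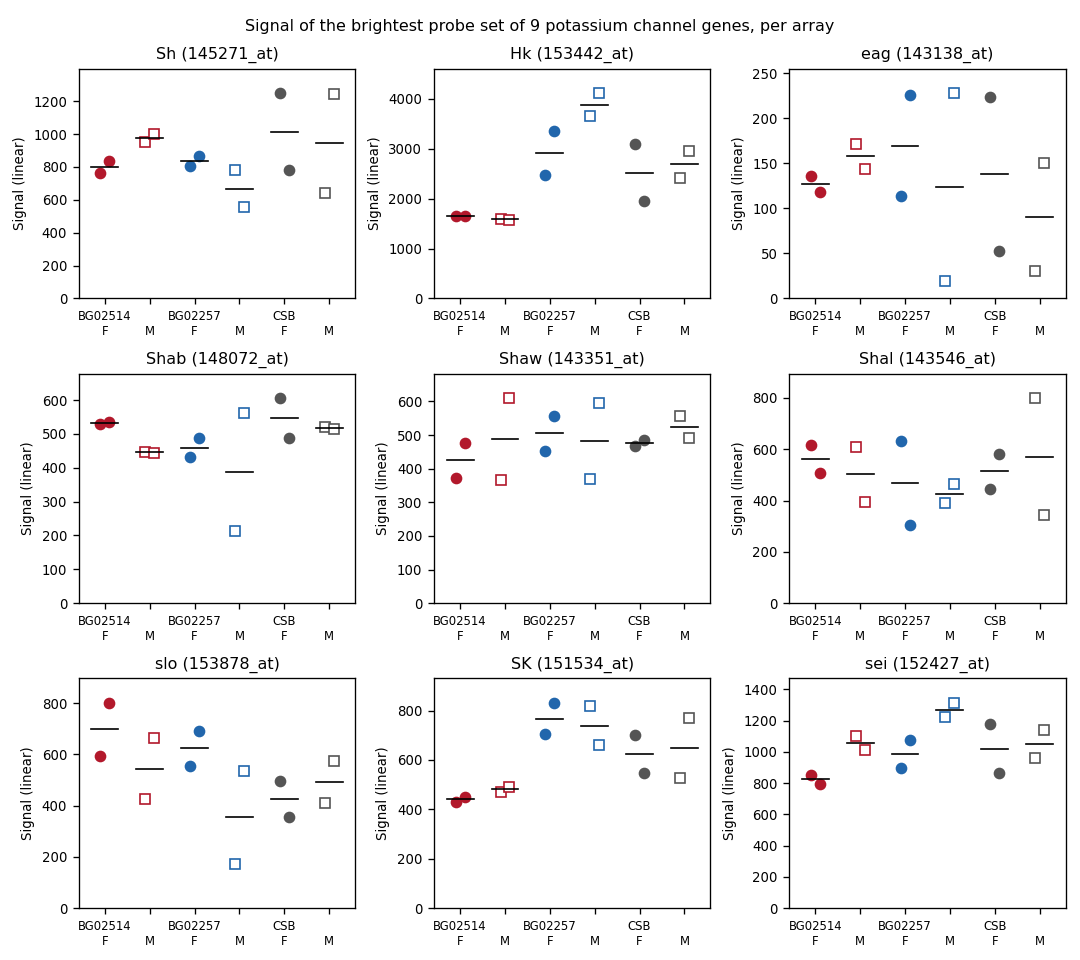
Signal (linear scale, from 0) of the brightest probe set of each of the 9 genes on the array, by line and sex. Each point is 1 array, filled circles are females (F), open squares males (M), bars are group means of 2 arrays and CSB is Canton S B. In Hk and SK the 4 BG02514 arrays lie below the other 8; in eag, slo and Shab the low BG02257 male array is male 1a.

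SK, the small-conductance calcium-activated channel, had the nearest pattern to Hk among the channel genes. At its brightest probe set (151534_at) Signal was 430.1 and 451.2 in BG02514 females and 470.8 and 492.2 in BG02514 males. BG02257 had 704.6 and 830.5 in females and 817.9 and 659.6 in males, and Canton S B had 702.5 and 546.4 in females and 527.8 and 770.6 in males. Here too the 4 BG02514 arrays lay below the other 8. The log2 difference was −0.70 ± 0.16 between BG02514 and BG02257 (SE, limma adjusted p = 0.158), with a 95% interval of −1.06 to −0.34. Between BG02514 and Canton S B it was −0.45 ± 0.16 (adjusted p = 0.476), with an interval of −0.81 to −0.09. Neither passed the test.

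The dimmer tested probe sets of SK lay in the same direction between BG02514 and BG02257 but closer to 0. The log2 difference was −0.24 ± 0.21 at 144517_at (SE, limma adjusted p = 0.755) and −0.23 ± 0.23 at 142344_at (adjusted p = 0.799). Their ranges overlapped between the lines, with 216.8 to 329.6 in BG02514 and 238.5 to 416.7 in BG02257 at 144517_at. At 142344_at the ranges were 165.3 to 338.8 in BG02514 and 269.3 to 368.0 in BG02257. The 3 probe sets correlated with each other at r of 0.15 to 0.45 over 12 arrays. Without BG02257 male 1a the highest of these, between 151534_at and 144517_at, was 0.75.

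SK lies near the region named in the series title, with 24 protein-coding genes between it and the trehalose receptor gene Gr5a in the gene order of Release 6, on an X chromosome with 2197 of them. Hk is farther away, with 464 genes between. The labels do not place either line's insertion.

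Line accounted for most of the variation of these 2 probe sets. Of the sum of squares of log2 Signal over 12 arrays, line took 79.5% at Hk 153442_at and 76.2% at SK 151534_at, and sex 2.83% and 0.309%. A line share at least as high as that of Hk was found at 0.525% of all tested probe sets, and as that of SK at 0.716%. At the other 16 probe sets line took 2.29% to 42.7%, where the median of all tested was 15.3%. The spread between replicate arrays took more than any other source at 15 of the 18, from 36.9% at Sh 151483_at to 87.8% at Shal. Its median share over all tested was 52.1%. At how many of all tested probe sets it was the largest source was not counted, so this is not read as a trait of the channel genes.

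**Figure D2:**
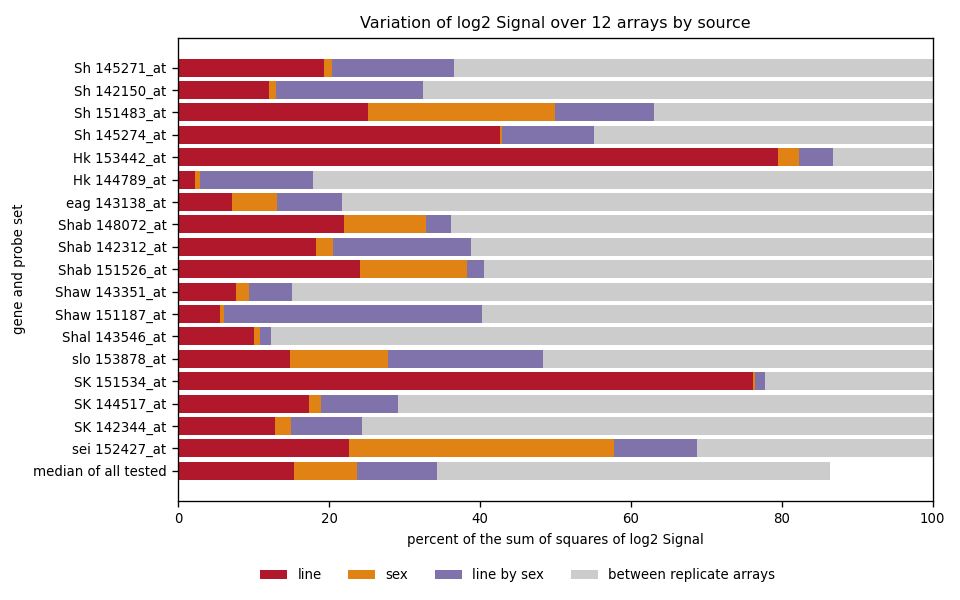
Share of the sum of squares of log2 Signal over 12 arrays (x axis, percent) due to line, sex, line by sex and the spread between replicate arrays, for each tested probe set. The bottom bar gives the median of each share over all 8380 tested probe sets, which need not add up to 100. Line took 79.5% at Hk 153442_at and 76.2% at SK 151534_at.

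The erg-type channel gene sei, mutants of which seize at raised temperature, had the smallest spread between replicates of the 18 probe sets (SD 0.174 on the log2 scale). Over the 6 female arrays its Signal had a lowest value of 796.6, a median of 879.8 and a highest value of 1176.7. Over the 6 male arrays these were 960.6, 1120.5 and 1313.3. The sexes overlapped. The female minus male difference was −0.26 ± 0.12 on the log2 scale (SE), with a 95% interval of −0.52 to −0.01, and was not called (limma unadjusted p = 0.0458, adjusted p = 0.32). Within lines it was −0.36 in BG02514, −0.37 in BG02257 and −0.05 in Canton S B. Between BG02514 and BG02257 the difference of sei was −0.26 ± 0.14 (adjusted p = 0.617).

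No probe set of the 18 was called between the sexes, against 2.84% of all tested probe sets, and sei was the 1 with an unadjusted limma p under 0.05, against 15% of all tested. Two-way models fitted to each probe set alone called 0 of the 18 as well, against 103 (linear Signal) and 105 (log2 Signal) of all 8380 tested. On the log2 scale 10 of the 18 lay above and 8 below 0, with a median of 0.05, where 4205 of all 8380 tested lay above 0. Without BG02257 male 1a, 6 lay above and 12 below 0, with a median of −0.14, against −0.02 over all tested. The sign of that median thus depended on 1 array. Fat body markers differed between the sexes, with 4 of 6 called, all higher in females, and summed Signals of 229310 to 275612 in females and 14918.3 to 36124.3 in males. Their part in the channel values was not tested. For Hk the sex difference was −0.16 ± 0.13 (SE, limma adjusted p = 0.622), with a 95% interval of −0.46 to 0.13.

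Shaker, the pore subunit that Hk binds, did not follow Hk. At its brightest probe set (145271_at) Signal was 762.9 and 833.6 in BG02514 females and 952.5 and 998.5 in BG02514 males. It was 803.8 and 868.3 in BG02257 females and 781.6 and 555.2 in BG02257 males, and 1247.1 and 782.1 in Canton S B females and 643.7 and 1244.0 in Canton S B males. Replicates of Canton S B differed widely and all 3 lines overlapped. Between BG02514 and BG02257 the log2 difference was 0.25 ± 0.22 (SE, limma adjusted p = 0.762), opposite in sign to that of Hk, with a 95% interval of −0.24 to 0.74. Over the 12 arrays the brightest probe sets of Sh and Hk correlated at r of −0.15.

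The other 3 probe sets of Sh were also above 0 between BG02514 and BG02257, at 0.46 (142150_at), 0.35 (151483_at) and 0.58 (145274_at) on the log2 scale, and none was called. The probe set 145274_at had an unadjusted limma p of 0.0298 (adjusted p = 0.433). Without BG02257 male 1a the values were 0.37 at 145271_at, −0.03 at 142150_at, 0.26 at 151483_at and 0.36 at 145274_at. Pairs of Sh probe sets correlated at r of 0.07 to 0.85, and at 0.04 to 0.57 without that array.

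The Shaker relatives Shab, Shaw and Shal, pore subunits of other voltage-gated potassium currents, showed no called difference. The 3 probe sets of Shab were at 0.29, 0.32 and 0.31 on the log2 scale between BG02514 and BG02257 (limma adjusted p = 0.641 to 0.752), and at −0.06, 0.07 and 0.25 without BG02257 male 1a. At 148072_at that array had a Signal of 214.6, against 430.5 to 605.4 on the other 11. The brighter Shaw probe set (143351_at) differed by −0.12 ± 0.21 (SE, adjusted p = 0.888). The dimmer one (151187_at) had 13.3 on male 1a and 106.6 to 500.1 on the others, and its difference of 0.65 between BG02514 and BG02257 turned to −0.56 without that array. Shal ranged from 394.9 to 615.0 in BG02514, from 305.8 to 631.9 in BG02257 and from 342.3 to 798.5 in Canton S B.

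Of the calcium-activated slo, the large-conductance channel, Signal was 594.5 and 800.0 in BG02514 females and 423.6 and 662.6 in BG02514 males. BG02257 had 554.8 and 691.8 in females and 171.4 and 535.7 in males, the lowest on male 1a, and Canton S B had 495.2 and 355.9 in females and 408.6 and 572.5 in males. The lines overlapped. Its log2 difference was 0.42 ± 0.32 between BG02514 and Canton S B (SE, limma adjusted p = 0.817). Between BG02514 and BG02257 it was 0.48 ± 0.32 (adjusted p = 0.663), and 0.07 without male 1a. The gene eag had a mean Signal of 134.5, just above the filter. Its lowest and highest arrays were replicates of 1 group, BG02257 male 1a at 19.4 and male 1b at 227.6. The 95% interval of its difference between BG02514 and BG02257, −1.27 to 2.18, is too wide to read a direction.

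**Figure D3:**
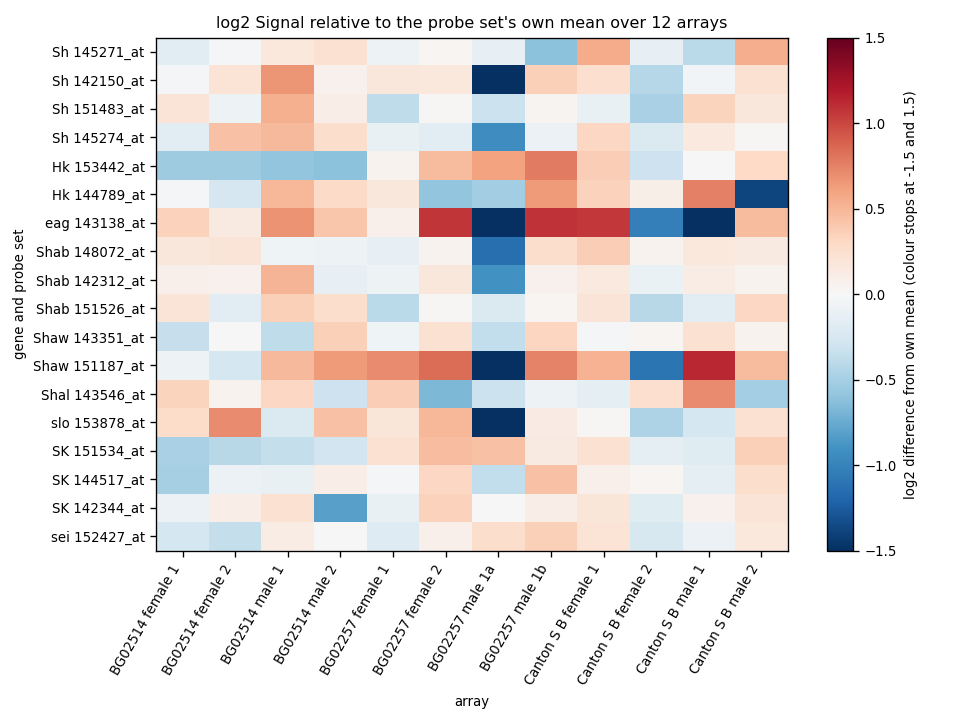
log2 Signal of the 18 tested probe sets relative to each one's own mean over 12 arrays (colour, red above and blue below, stopping at −1.5 and 1.5), with arrays in columns. The rows Hk 153442_at and SK 151534_at are blue on all 4 BG02514 arrays, and the column of BG02257 male 1a is dark blue at one probe set of Sh (104.2) and at eag (19.4), Shaw 151187_at (13.3) and slo (171.4).

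As a group the channel genes did not move one way between the lines. Between BG02514 and BG02257, 12 of 18 probe sets lay above 0 with a median of 0.28 on the log2 scale, where all tested probe sets had a median of −0.01. Without BG02257 male 1a, 7 lay above 0 and the median was −0.07. Between BG02514 and Canton S B, 9 lay above and 9 below 0 with a median of −0.02, 0 were called by limma against 0.179% of all tested, and 2 had an unadjusted p under 0.05 (8.02% of all tested), Hk and SK at their brightest probe sets. Between BG02257 and Canton S B, 6 lay above and 12 below 0 with a median of −0.09, and 12 above and 6 below with a median of 0.14 without male 1a. In that comparison 0 were called against 0.0955% of all tested, and 1, of Hk, had an unadjusted p under 0.05 (4.01% of all tested). The two-way models called 0 of the 18 in each of these 3 comparisons. They called no more than 3 of all 8380 tested in any of the 3, so a count of 0 of 18 tells little.

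**Figure D4:**
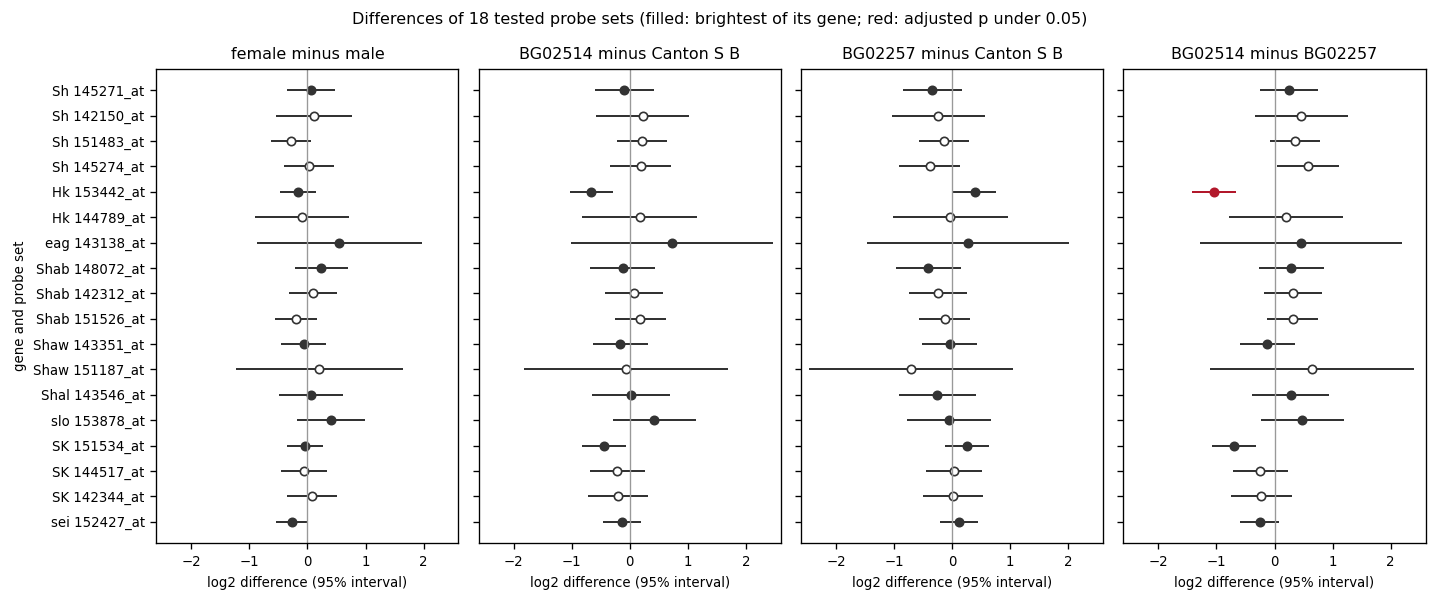
log2 differences of the 18 tested probe sets with 95% intervals from the limma model, in 4 comparisons. Filled points are the brightest probe set of a gene, and red marks an adjusted p under 0.05, which Hk 153442_at alone reached, at −1.05 between BG02514 and BG02257. Intervals of eag and of Shaw 151187_at are the widest.

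No sex difference of the channel genes was shown to depend on line. The interaction test called 0 of the 18, as of all tested probe sets (0%), and none of the 18 had an unadjusted limma p under 0.05, against 2.8% of all tested. The largest F was that of Shaw 151187_at (3.04, adjusted p = 1). Female minus male, it differed by −0.73 in BG02514, 2.45 in BG02257 and −1.09 in Canton S B. The value in BG02257 rested on male 1a, at 13.3 against 381.3 on male 1b, and without male 1a the F was 1.32 (limma unadjusted p = 0.31, adjusted p = 1). The sex difference of Hk was 0.06, −0.43 and −0.12 in the same order of lines (F = 1.16, adjusted p = 1). With BG02257 male 1b left out, so that males of that line were represented by male 1a alone, the Shaw probe set reached an adjusted p of 0.0212.

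Markers of cell types were set beside the Hk difference. The summed Signals of the lists given here overlapped between BG02514 and BG02257. Between BG02514 and BG02257, 7 of 7 neuron genes lay above 0, opposite to Hk, with a median of 0.33, and 4 of 7 with a median of 0.10 without male 1a. Summed Signal of the neuron list was 6457.3 to 8303 in BG02514 and 4439.9 to 7025.4 in BG02257. Of 5 photoreceptor genes 4 lay below 0, as Hk did, with a median of −0.26. Without male 1a, 0 of the 5 lay above 0, with a median of −0.23. With all arrays 3 of the 5 had an unadjusted limma p under 0.05, against 9.99% of all tested. Their summed Signals were 128406 to 139903 in BG02514 and 134541 to 155928 in BG02257. Arr1 and Arr2, the brightest of the 5 (mean Signals of 51580 and 57630), weigh most in these sums. Of 5 glial genes 4 lay above 0 with a median of 0.24 and summed Signals of 13784.6 to 19347.6 in BG02514 and 12148.5 to 17508 in BG02257. Of 8 tested gut genes 7 lay above 0 with a median of 0.85, and 7 with a median of 1.44 without male 1a. Summed Signal of the gut list, over its 9 genes on the array, was 5346.7 to 8332.8 in BG02514 and 3055.6 to 5961.6 in BG02257. None of these genes was called in that comparison. Between BG02514 and Canton S B the photoreceptor gene inaD was lower (−0.85 on the log2 scale, limma adjusted p = 0.0278), and 8 of 8 gut genes lay above 0 with a median of 1.09 and none called. The part of any of these cell types in the Hk and SK values was not tested.

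Other genes of the same physiology gave no call in any of the 4 comparisons. Of 17 further potassium channel genes 13 were tested. In the sex comparison 7 lay above and 6 below 0 with a median of 0.00 on the log2 scale, and the largest differences were those of the inward rectifier Irk3 (−0.61), the leak channel sand (0.58) and CG43155 (0.47). Without BG02257 male 1a, 3 of the 13 lay above 0 between the sexes, with a median of −0.18. Between BG02514 and BG02257, 9 of the 13 lay above 0 with a median of 0.09, and 5 of the 13 with a median of −0.04 without that array. In that comparison Shawl gave 0.65 (limma unadjusted p = 0.0277, adjusted p = 0.425), opposite in sign to Hk. Between BG02514 and Canton S B it gave 0.71 (limma unadjusted p = 0.0185, adjusted p = 0.473). Shawl was the 1 of the 13 with an unadjusted p under 0.05 in each of these comparisons. Of 8 partners and regulators 5 were tested, and in the sex comparison SIDL, Slip1 and 14-3-3zeta gave 0.10, 0.10 and −0.10. Slob, which encodes a protein that binds the slo channel, gave 0.01 between BG02514 and BG02257.

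Of 18 sodium, calcium and other voltage-gated cation channel genes 15 were tested. Between the sexes 10 of the 15 lay below 0 with a median of −0.11, and without BG02257 male 1a 2 of the 15 lay above 0, with a median of −0.19. The largest sex differences were those of unc79 (−0.50) and na (0.32), both of the sodium leak channel complex, and of Teh3 (−0.45), an auxiliary sodium channel subunit. The sodium channel gene para gave 0.03 between BG02514 and BG02257, and the complex partner unc80 gave −0.51 (limma unadjusted p = 0.0103, adjusted p = 0.327). On BG02257 male 1a 6 of the 15 had their lowest Signal.

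The genes whose log2 Signal followed Hk 153442_at most closely over the 12 arrays were Os-C (r of 0.96), NaPi-III (0.92), Ctr9 (0.92), CSN6 (0.90) and PGAP3 (0.90), among 6777 other named genes taken at their brightest probe set. Os-C encodes an olfactory-specific protein of the antenna, NaPi-III a phosphate transporter, Ctr9 a subunit of the Paf1 complex and CSN6 a subunit of the COP9 signalosome. Os-C had Signals of 3926 to 4809.8 in BG02514, 6059.9 to 9162.2 in BG02257 and 5512.3 to 6937.7 in Canton S B. Ctr9 had 919.6 to 1318.7 in BG02514, 2167.3 to 3340.1 in BG02257 and 1983 to 3518.8 in Canton S B. Both were lower on every BG02514 array than on the other 8, and these correlations share that step between lines. Among the channel genes SK correlated best with Hk (r of 0.88, 12th of the 6777), followed by sei (0.73, 142nd), and Shal was lowest (−0.46). These correlations describe 12 arrays of 6 groups and carry no test.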

How the data were processed

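Values are Affymetrix Signals, an intensity that the authors deposited on a linear scale. Per the labels' design text the metric is that of Microarray Suite 5.0, and the submitters' processing notes list GCOS, with no version. Detection calls were not used here. Every array had a trimmed mean of 500.1 (2% left out at each end), so scaling preceded deposit and forces arrays to a like level. Signals of different probe sets are not compared as amounts of RNA. They were used to rank the probe sets of a gene by brightness. They were also summed within lists, where the brightest genes weigh most.

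Of 14010 probe sets, 44 controls were dropped. Symbols came from the platform annotation, updated through RefSeq (Release 6 plus ISO1 MT), which also gave chromosome arms and gene order. After rescaling to 1 trimmed mean, log2 Signal was tested without a pseudocount at 8380 probe sets, those of mean Signal 128.3 or higher. The test was limma 3.58.1 in R 4.3.3, with 6 group means, a variance trend, 6 residual and 5.09 prior degrees of freedom, and two-sided p-values adjusted by Benjamini-Hochberg over all of them. Contrasts weight groups equally. Printed Signals are as deposited, and n counts arrays. The number of arrays, 2 a group, limits precision. The model was tried on simulated data with independent, normally distributed errors. Between BG02514 and BG02257 it called 75 of 100 simulated log2 differences of 1 and 94 of 100 of 2, with 6 false calls. Between the sexes it called 85 and 93 of 100, with 4 false calls. No outlying array was simulated, so this does not cover an array such as BG02257 male 1a. Between BG02514 and BG02257 the simulated differences also far outnumbered the 28 probe sets called in the data. More true differences make the adjusted threshold easier to pass, so the rates of 75 and 94 of 100 may be too high for that comparison.

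All probe sets of the 10 genes are described, and the brightest stands for a gene where a single one is used. Of each other channel list the 3 largest sex differences are named. Slob, Shawl, Irk2, CG34396, para and unc80 were named after their values were seen. Genes and lists were chosen with earlier results of these data known. Alternatives are in the closing section.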

Additional observations from a re-analysis of the deposited data

Results flagged for a closer look

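Each tested channel probe set was screened for an array far from the others of its sex (6 arrays) or its line (4 arrays), by the gap to the nearest array over the whole range of log2 Signal. Of 90 such groups 9 stood out, where chance gives about 1 in 20, and 7 of the 9 were low values of BG02257 male 1a. The groups overlap, since each array belongs to a line and a sex.

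On BG02257 male 1a, Sh 142150_at had a Signal of 104.2, against 309.9 to 502.9 on the other males and 353.6 to 406.7 on the other BG02257 arrays. Sh 145274_at had 140.2, against 240.2 to 252.6 on the other BG02257 arrays. Shab 148072_at had 214.6, against 444.2 to 562.4 on the other males. Shaw 151187_at had 13.3, against 316 to 500.1 on the other males and 371.3 to 406.2 on the other BG02257 arrays. The Signal of slo was 171.4, against 408.6 to 662.6 on the other males.

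Sh 145271_at was high on Canton S B female 1, at 1247.1 against 762.9 to 868.3 on the other females. SK 142344_at was low on BG02514 male 2, at 165.3 against 288.2 to 338.8 on the other males.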

How the results depend on the processing

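Of 36 differences (9 genes in 4 comparisons, at the brightest probe set), 35 were not called and stayed so under every alternative run. That of Hk between BG02514 and BG02257 stayed below 0 in all alternatives at its brightest probe set, and lost its call with eBayes without a variance trend (adjusted p = 0.0982), in the two-way model of log2 Signal (0.217) and of linear Signal (−1781 Signal units, 0.268), with the replicate block (−1.05, 0.0629) and with the BG02257 male arrays averaged (0.075). At its dim probe set it was 0.20. The 12 fits that left out 1 array gave −1.15 to −0.94, with 5 of 12 called. The count of channel probe sets called in that comparison, 1, was 0 in the same 5 settings and 0 to 2 on leaving out 1 array; the second was Shaw 151187_at, without BG02257 male 1b. The interaction count was 0 to 1 on leaving out 1 array. An alternative turned the sign of a difference called in neither fit 32 times in 491. Whether replicate numbers pair the samples was not settled. Correlations of the differences between replicates 1 and 2 ran from −0.236 to 0.269 over 10 pairs of groups, without the BG02257 males. Of the 10, 1 was over 0.1 and 4 were under −0.1. The cause of the changes in calls and signs was not tested, beyond the fewer arrays of some fits.

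Over all probe sets, the number called changed as follows; these are totals, and which probe sets they share was not counted. Between the sexes 238 were called, and 145 without a filter, 99 without a trend, 103 and 105 in the two-way models of linear and log2 Signal, and 116 to 299 on leaving out 1 array. Between BG02514 and Canton S B 15 were called, and 5 without a trend, 3 and 1 in the two-way models, and 4 to 20 on leaving out 1 array. Between BG02257 and Canton S B 8 were called, and 1 without a trend, in either two-way model and with only the 8 arrays compared, 2 with the replicate block, 3 with the male arrays averaged, and 2 to 24 on leaving out 1 array. The comparison of BG02514 with BG02257 had 28 calls, and 9 without a trend, 3 and 2 in the two-way models, 16 with the block, 11 with the male arrays averaged, and 2 to 90 on leaving out 1 array. The interaction gave 0 to 9 on leaving out 1 array.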
